A study of Mus musculus with 8 samples.

Results

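The genes described here encode ligands and receptors of the 3 colony-stimulating factor axes of the mouse. They were Csf1, Il34 and their receptor Csf1r, the CSF2 receptor chains Csf2ra and Csf2rb, and Csf3 with its receptor Csf3r. Csf2rb2, the second beta chain gene of the mouse, was taken with them. All 8 genes were found by symbol among the 32227 genes of the deposited tables. The study captured CD45+ cells, enriched with magnetic beads from whole brains of 8 male C57Bl/6J mice, by PIPseq, a droplet method of single cell RNA sequencing that counts unique molecules (UMIs). Mice received an intraperitoneal injection of saline or of lipopolysaccharide (LPS, 15000000 EU/kg) 24 hours before the brains were taken, and were 5 to 6 months old by the labels. Brains were dissociated with DMSO or with a mix of transcription and translation inhibitors (actinomycin D, triptolide and anisomycin), giving 4 combinations with 2 mice and 2 libraries each. Brains were not perfused, so cells of the blood were captured along with cells of the tissue. The CD45 selection removed most non-immune cells, and the endothelial, mural, leptomeningeal, choroid plexus and ependymal cells described here are those that it let through.

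The CSF1 receptor is a tyrosine kinase on microglia, macrophages and monocytes, and it binds both CSF1 and IL-34. The survival of microglia and of many macrophages depends on it. CSF2 (GM-CSF) signals through an alpha chain that gives specificity and a beta chain that it shares with IL-3 and IL-5, and mice carry a second beta chain gene, Csf2rb2, whose product serves IL-3. CSF3 (G-CSF) drives the production and release of neutrophils through a receptor that acts by JAK2 and STAT3.

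The promoters of Csf1 and Csf3r are shown because Csf1 moved in opposite directions in endothelial cells and microglia and because Csf3r had the steepest fall of the receptors in microglia. Both are the 250 bases before the gene start in RefSeq on GRCm38.p6, written 5′ to 3′ on the strand of the gene. The Csf1 promoter lies at chr3:107760470-107760719 on the minus strand, and the Csf3r promoter at chr4:126024409-126024658 on the plus strand. Capitals mark an NF-kappaB motif (GGANTTTCC, matched on the reverse strand) in Csf1 and the PU.1 core (GAGGAA) in Csf3r.
Csf1: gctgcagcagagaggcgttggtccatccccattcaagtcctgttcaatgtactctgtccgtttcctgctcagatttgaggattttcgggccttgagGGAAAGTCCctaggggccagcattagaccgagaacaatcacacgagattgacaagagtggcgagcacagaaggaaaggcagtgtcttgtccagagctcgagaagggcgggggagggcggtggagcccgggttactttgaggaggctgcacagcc
Csf3r: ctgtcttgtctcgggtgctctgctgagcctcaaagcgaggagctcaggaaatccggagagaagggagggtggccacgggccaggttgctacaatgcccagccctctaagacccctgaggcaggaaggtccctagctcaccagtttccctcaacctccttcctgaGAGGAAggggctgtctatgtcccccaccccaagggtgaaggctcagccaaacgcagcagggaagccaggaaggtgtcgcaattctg
The NF-kappaB motif began 154 bases before the start of Csf1 and was held by 1.07% of 32851 promoters searched on both strands. The PU.1 core began 86 bases before the start of Csf3r and was held by 23.3% of them. The C/EBP motif TTNNGNAA (36.8% of promoters) and the AP-1 motif TGANTCA (6.75%) were in neither window. The Csf2ra window held the PU.1 core at 2 places, 14 and 8 bases before the start, and 1 C/EBP motif at 31 bases, and the Csf2rb2 window held the PU.1 core once, at 167 bases. No motif of these 4 overlapped another in the windows of Csf1 and Csf3r. A match describes letters and was not tested as a binding site.

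Cells with 800 to 44999 UMIs, 250 to 6499 genes and under 5% mitochondrial counts were kept, 12039 to 17364 per library and 119053 in all, and library totals ran from 90352359 to 141182123 UMIs. Of these cells, 86.4% to 95.2% per library held enough markers of 1 class to be assigned to it, which gave 107389 cells. Barcodes with fewer than 100 UMIs, taken as free RNA, held 15.5% to 33.7% of the UMIs of a library, and 145 barcodes in all were shared by the 28 pairs of libraries. Median UMIs per cell rose with treatment in microglia, from 2633 in saline to 4999 in LPS. The summed level of the 12 microglial markers in the microglia class was 43083 to 45182 in saline libraries, in CPM (the UMIs of a gene relative to all UMIs of the class in a library), and 7774 to 8840 CPM in LPS libraries, and in macrophages it was 6955 to 7560 against 775 to 987 CPM. In microglia the 14 neutrophil markers, of which 4 reached 10 CPM, summed to 28.1 to 236 CPM in saline and 789 to 874 CPM in LPS libraries. The 10 classical monocyte markers, of which 4 did, summed to 43.8 to 56.4 and 141 to 173 CPM, and the 13 dendritic markers, of which 3 did, to 565 to 589 and 183 to 224 CPM. The part of these marker changes in the results below was not tested.

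Levels are CPM of the UMIs of a class in a library, in the order saline DMSO replicates 1 and 2, saline inhibitors replicates 1 and 2, LPS DMSO replicates 1 and 2 and LPS inhibitors replicates 1 and 2. Fold changes are on the log2 scale from edgeR's quasi-likelihood test after TMM scaling, with the SE, 4 libraries on each side unless stated, and p-values adjusted over all genes of the class by Benjamini-Hochberg. In microglia the median of all genes was -0.18 after TMM and -0.93 when library totals alone set the scale, a shift of 0.75 on the log2 scale, and in macrophages the shift was 0.37. Changes are relative to these medians, and the value with library totals is given where it moves a call or a direction.

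LPS against saline was tested in 11 classes, of which 6 were myeloid. The 8 genes in 11 classes make 88 pairs, 50 had enough counts to be tested and 35 passed an adjusted p of 0.05, where 42.7% of all tests across these classes passed. Of these, 18 were higher after LPS and 17 were lower, where 20.5% of all tests were higher and 22.2% were lower. With library totals as the only scale, 16 pairs were higher and 18 lower, beside 13.7% and 34.5% of all tests. In microglia 8 of 8 genes passed (65.2% of all genes tested), in macrophages 6 of 6 (50.8%), in classical monocytes 3 of 7 (29.1%), in nonclassical monocytes 1 of 3 (19.1%), in neutrophils 3 of 5 (22.4%) and in dendritic cells 2 of 4 (35.8%). In endothelial cells 5 of 7 passed (43.8%), in leptomeningeal fibroblasts 4 of 5 (26.4%), in ependymal cells 2 of 2 (31.0%), in choroid plexus cells 1 of 1 (27.4%) and in pericytes and smooth muscle cells 0 of 2 (26.6%), where edgeR also gave 0 at an unadjusted p under 0.05 and DESeq2 gave 0. Csf3 passed the count filter only through LPS libraries, so its tests in 5 classes had to show a difference. Without Csf3, 30 of 45 pairs passed, 13 higher and 17 lower. These included Il34 and Csf2ra in leptomeningeal fibroblasts and Csf3r in endothelial cells. Those pairs passed the count filter only through saline libraries, so their tests had to show a difference as well. DESeq2, with Csf3 kept, called 5 of the 7 genes tested in classical monocytes, and in the other classes the same numbers as edgeR.

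**Figure D1:**
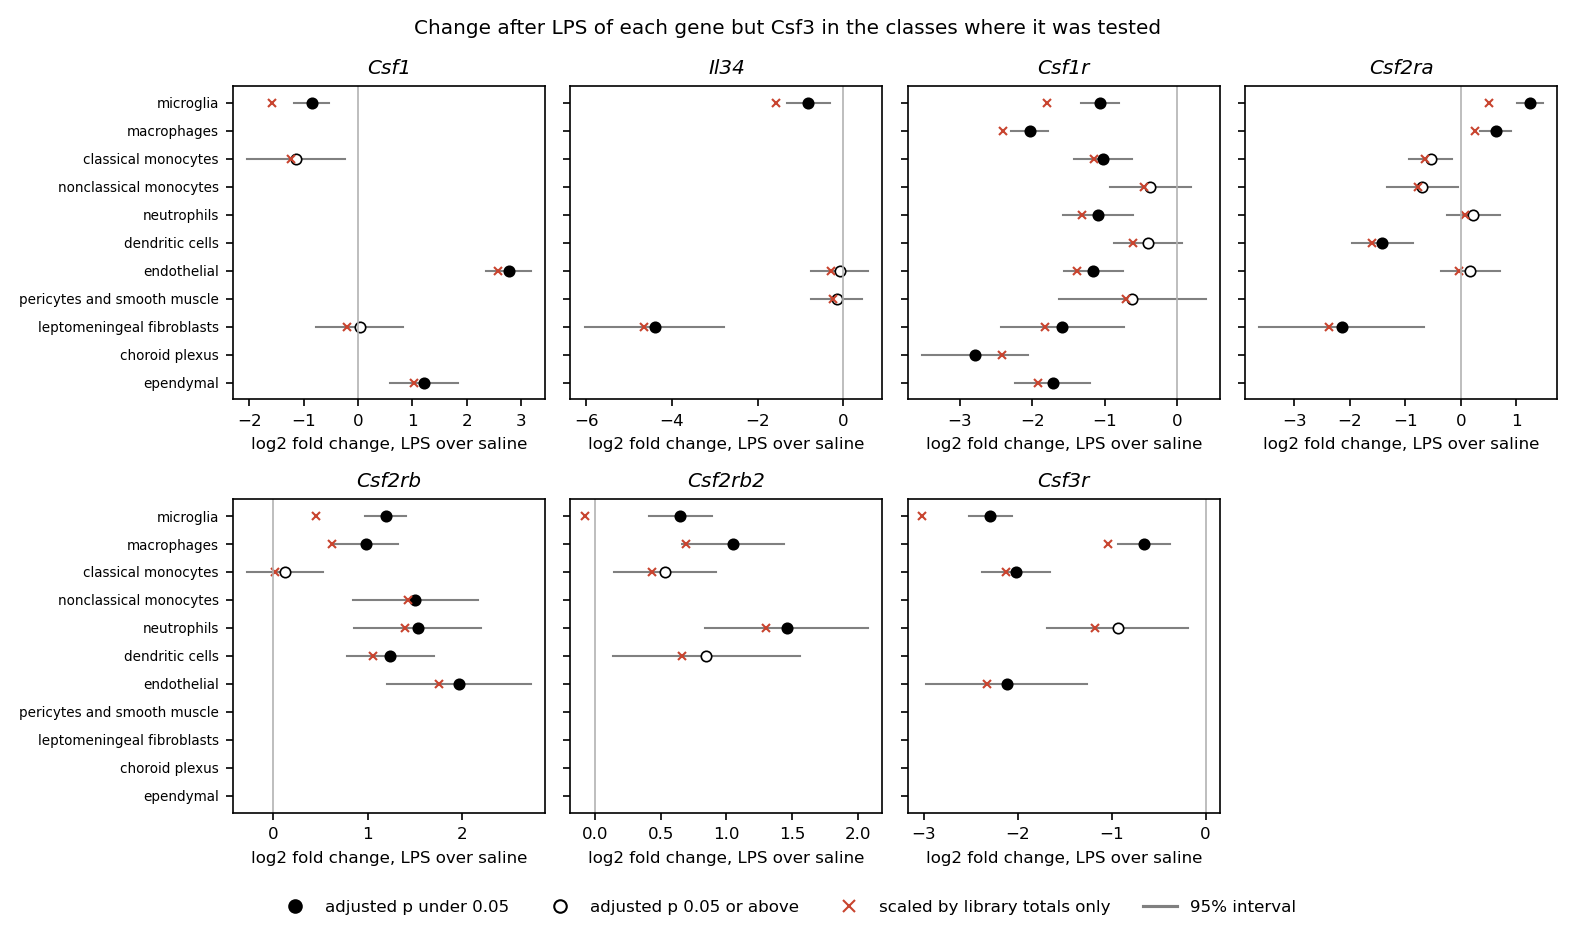
Fitted log2 fold change of LPS over saline (x axis) of each gene but Csf3 in each class where it was tested (y axis). Circles are TMM-scaled values with 95% intervals, filled at an adjusted p under 0.05, and crosses are values with library totals as the only scale. Csf1r and Csf3r lie left of 0 in each class shown, and Csf1 lies left of 0 in microglia (-0.86) and right of 0 in endothelial cells (2.77).

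Of the CSF1 receptor ligands, Csf1 rose in endothelial cells and ependymal cells and fell in microglia. In endothelial cells Csf1 stood at 46.1, 72.0, 68.3 and 58.3 CPM in saline libraries and at 505, 392, 310 and 248 CPM in LPS libraries. Each LPS library was above each saline library, and the 2 DMSO libraries with LPS were the highest. The log2 fold change was 2.77 (SE 0.21, edgeR adjusted p = 1.22e-08). The free RNA would give 1.44 CPM in saline and 0.95 CPM in LPS endothelial cells. Genes on the marker lists of other types moved in this class as well. The 12 microglial markers, all at 10 CPM or more, summed to 3231 to 3641 CPM in saline and 1085 to 1610 CPM in LPS libraries. The 9 nonclassical monocyte markers, of which 2 reached 10 CPM, summed to 931 to 1117 and 2585 to 5623 CPM, and the 10 classical monocyte markers, of which 4 did, to 1740 to 1972 and 972 to 1350 CPM. Whether endothelial cells themselves gave the UMIs of these lists was not tested. Their part in the changes of endothelial cells was not tested either. Among endothelial cells thinned to 800 UMIs, those with a Csf1 UMI made up 4.58% ± 1.79 (SD) in saline and 19.3% ± 7.72 in LPS (exact two-sided permutation test, p = 0.0286, the smallest that 4 against 4 libraries can give). Without thinning the shares were 19.96% and 48.1%. Across the 11 classes tested, the means of Csf1 in saline libraries were highest in leptomeningeal fibroblasts, endothelial cells and ependymal cells, whose ranges overlapped from each to the next. After LPS endothelial cells stood alone among them at 364 CPM ± 111 (SD), followed by ependymal cells at 98.0 CPM.

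Microglia held Csf1 at 22.4, 20.1, 17.0 and 16.9 CPM in saline libraries and at 8.91, 5.13, 6.52 and 4.77 CPM in LPS libraries. The groups did not overlap. The log2 fold change was -0.86 (SE 0.17, edgeR adjusted p = 0.000623), and with library totals as the only scale it was -1.59. Microglia, being the most numerous class, gave 75.5% of all assigned Csf1 UMIs in saline libraries and 52.6% in LPS libraries, while endothelial cells gave 10.3% and 35.3%, although they made up 0.857% of the assigned LPS cells. Ependymal cells held 84.3, 46.0, 31.1 and 34.9 CPM in saline libraries and 149, 67.8, 86.7 and 88.1 CPM in LPS libraries. These groups overlapped, because saline DMSO replicate 1 was above LPS DMSO replicate 2. The test passed with a log2 fold change of 1.22 (SE 0.32, edgeR adjusted p = 0.00581). In ependymal cells the 12 microglial markers, all at 10 CPM or more, summed to 2934 to 3828 CPM in saline and 1277 to 1863 CPM in LPS libraries. The 13 dendritic markers, of which 3 reached 10 CPM, summed to 77.0 to 109 and 44.8 to 57.8 CPM. The part of both lists in the changes of this class was not tested. In leptomeningeal fibroblasts the 3 LPS libraries with enough cells held 125, 101 and 62.8 CPM, within the saline range of 52.0 to 191 CPM, and the log2 fold change was 0.03 with a 95% interval of -0.77 to 0.83. Classical monocytes had lower Csf1 in each LPS library, 2.55 to 5.71 CPM against 6.97 to 11.9 CPM, at a log2 fold change of -1.14 that missed the threshold (edgeR adjusted p = 0.0750).

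Il34, the other ligand of the CSF1 receptor, stood highest of the classes tested in mural and leptomeningeal cells in saline libraries, and in mural cells in LPS libraries. Pericytes and smooth muscle cells held 271, 155, 190 and 232 CPM in saline libraries and 132, 270, 158 and 256 CPM in LPS libraries. The groups overlapped across nearly their whole range, and the log2 fold change was -0.15 (95% interval -0.74 to 0.43, edgeR adjusted p = 0.762). Leptomeningeal fibroblasts held 162, 209, 347 and 54.9 CPM in saline libraries, while the 3 LPS libraries held 22.7, 0 and 0 CPM. This came to 60 UMIs in 72 cells against 4 UMIs in the tested LPS libraries, and the log2 fold change was -4.41 (SE 0.83, edgeR adjusted p = 0.00117). No LPS library reached the lowest saline library. Il34 passed the count filter in this class only through saline libraries, so the test had to show a difference. In this class the 12 microglial markers, all at 10 CPM or more, summed to 3851 to 6541 CPM in saline and 1443 to 1669 CPM in LPS libraries, and their part in its changes was not tested. Endothelial cells held 9.89 to 17.6 CPM in saline and 5.58 to 14.6 CPM in LPS libraries, overlapping at a log2 fold change of -0.083 (95% interval -0.75 to 0.59, edgeR adjusted p = 0.867). The Il34 levels of the other classes were low, with means of 13.3 CPM or less in saline, and in microglia 1.59 to 3.92 CPM in saline stood against 0.653 to 1.07 CPM in LPS. The microglial change of -0.81 passed the test (SE 0.26, edgeR adjusted p = 0.0158), and it missed the threshold without saline DMSO replicate 1 (-0.51, adjusted p = 0.0740) and without LPS inhibitors replicate 1 (-0.70, adjusted p = 0.0524).

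**Figure D2:**
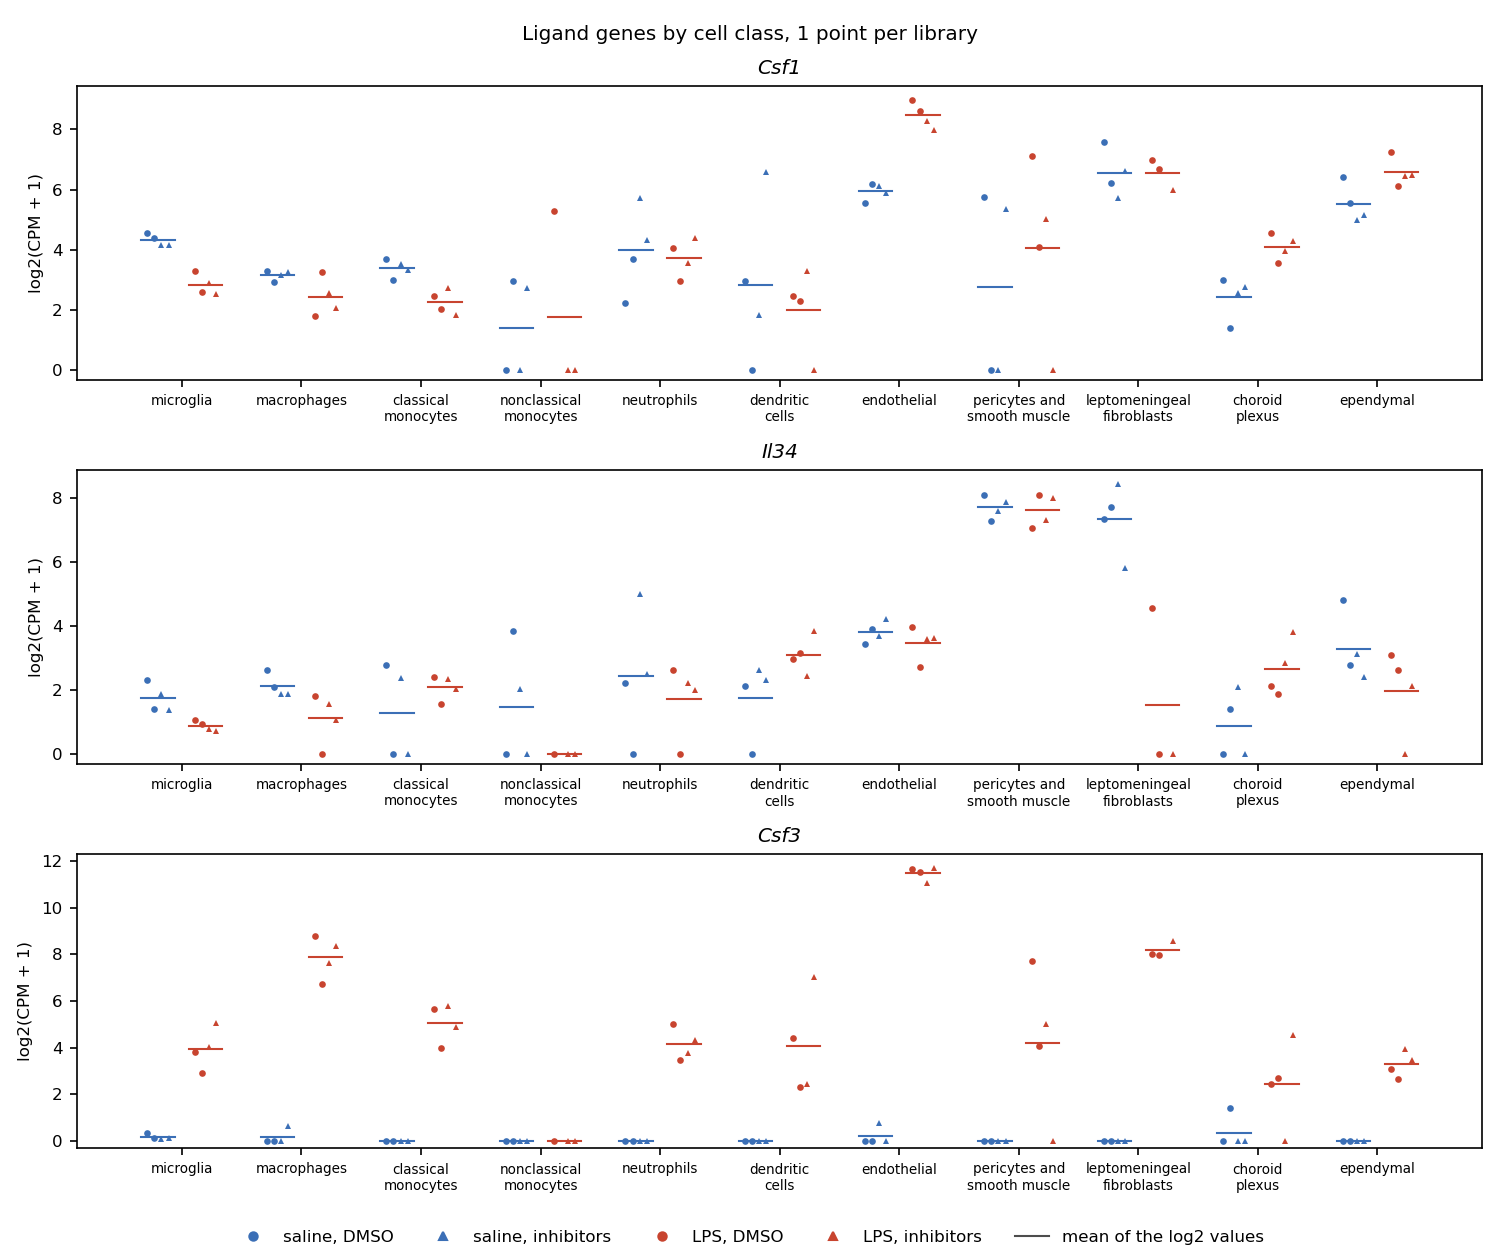
Level of Csf1, Il34 and Csf3 as log2(CPM + 1) (y axis) in 11 classes (x axis), 1 point per library, with circles for DMSO, triangles for inhibitors and lines at the mean of the log2 values. Endothelial cells hold the highest Csf1 and Csf3 after LPS, and Il34 stays at 132 to 270 CPM in pericytes and smooth muscle cells after LPS while leptomeningeal fibroblasts drop to 0 to 22.7 CPM.

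Csf1r fell in microglia, macrophages and classical monocytes. In microglia it stood at 6022, 5748, 6144 and 5613 CPM in saline libraries and at 1775, 1726, 1757 and 1507 CPM in LPS libraries. Within each group the libraries lay close together, and the groups were far apart. The log2 fold change was -1.06 after TMM (SE 0.13, edgeR adjusted p = 1.56e-05) and -1.80 with library totals as the only scale. In macrophages, which in this class are the Mrc1 and Cd163 expressing cells of the borders of the brain, it stood at 3036, 2957, 3006 and 2838 CPM in saline libraries. The LPS libraries held 590, 556, 532 and 576 CPM, all below the lowest saline library. There the change was -2.03 on the log2 scale (SE 0.13, edgeR adjusted p = 7.62e-09). The 12 markers of the class itself, all at 10 CPM or more, summed to 15758 to 16479 CPM in saline and 4819 to 5591 CPM in LPS libraries. The 13 dendritic markers, of which 6 reached 10 CPM, summed to 956 to 1281 and 287 to 654 CPM in macrophages, and the 14 neutrophil markers, of which 6 did, to 91.5 to 287 and 573 to 740 CPM. The part of these markers in the changes of the macrophage class was not tested. Tested directly, the fall in macrophages was steeper than in microglia by 0.98 on the log2 scale (edgeR adjusted p = 1.89e-16, where 27.4% of all genes differed between these classes), and by 0.59 with library totals.

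Classical monocytes, the Ly6c2 and Ccr2 expressing monocytes of the blood, held Csf1r at 1070, 567, 930 and 673 CPM in saline libraries and at 350, 346, 346 and 419 CPM in LPS libraries. The groups did not overlap, although saline libraries gave only 53 to 132 of these cells and LPS libraries gave 667 to 989. It changed by -1.02 on the log2 scale (SE 0.20, edgeR adjusted p = 0.00139), and the call was lost without the cells highest in immediate-early genes (-0.82, adjusted p = 0.0521) and with DMSO libraries alone (-0.95, adjusted p = 0.104). In this class the 12 microglial markers, of which 10 reached 10 CPM, summed to 2334 to 3567 CPM in saline and 479 to 712 CPM in LPS libraries. The 12 macrophage markers, of which 7 reached 10 CPM, summed to 1370 to 1583 CPM and 471 to 680 CPM. The 10 markers of the class itself, all at 10 CPM or more, summed to 9612 to 11386 CPM and 5952 to 7447 CPM. The 9 nonclassical monocyte markers, of which 7 reached 10 CPM, summed to 491 to 601 CPM and 332 to 378 CPM. The 14 neutrophil markers, of which 6 did, summed to 255 to 439 CPM and 628 to 1020 CPM. The part of these markers in the changes of Csf1r and Csf3r in classical monocytes was not tested. Nonclassical monocytes, gated on markers of the patrolling subset, held 783 to 1134 CPM in saline libraries. In this class the 14 neutrophil markers, of which 11 reached 10 CPM, summed to 279 to 16768 CPM in saline libraries. Its own 9 markers summed to 5004 to 6910 CPM there, and the part of the neutrophil markers in its levels was not tested. The 3 LPS libraries of nonclassical monocytes, with 11 to 13 cells each, held 755, 640 and 841 CPM and overlapped the saline range. The log2 fold change was -0.37 (95% interval -0.93 to 0.19, edgeR adjusted p = 0.379). In dendritic cells 309 to 660 CPM in saline overlapped with 256 to 399 CPM in LPS, at -0.41 (95% interval -0.87 to 0.06, edgeR adjusted p = 0.201). Directly tested, the dendritic cell change lay 1.06 above that of microglia (edgeR adjusted p = 3.22e-08, against 15.4% of all genes), and it lay -0.25 from it under a stricter gate (adjusted p = 0.774).

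Csf1r UMIs were also counted in neutrophils and in non-immune classes, at levels close to what free RNA would give. For non-immune classes the expected level was set from their own level of myeloid markers. It therefore cannot tell free RNA from myeloid RNA of other sources. In neutrophils the estimate rested on 6 to 10 marker genes in LPS and 21 to 33 in saline libraries. The free RNA itself held Csf1r at 2590 to 4029 CPM in saline libraries and 1372 to 1777 CPM in LPS libraries. Endothelial cells had a mean of 242 CPM in saline, where 238 CPM was expected from free RNA, and 94.5 CPM in LPS, where 84.9 CPM was expected. Neutrophils had 459 CPM where 412 CPM was expected in saline and 188 CPM where 212 CPM was expected in LPS. The called falls of Csf1r in endothelial cells (-1.16), leptomeningeal fibroblasts (-1.58, lost without LPS DMSO replicate 2 or LPS inhibitors replicate 2), choroid plexus cells (-2.79), ependymal cells (-1.72) and neutrophils (-1.10) sat on levels at 0.885 to 1.5 times those expected from free RNA. With the expected free RNA subtracted, the endothelial value turned to 0.35 (edgeR adjusted p = 0.782), and the neutrophil (-1.34) and ependymal (-2.23) values missed the threshold (adjusted p = 0.431 and 0.0714). The choroid plexus call was kept in all 21 alternatives, free RNA subtraction among them. Measured levels in microglia were 23.2 times the expected level in saline and 27.0 times in LPS, and in macrophages 11 and 4.45 times.

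**Figure D3:**
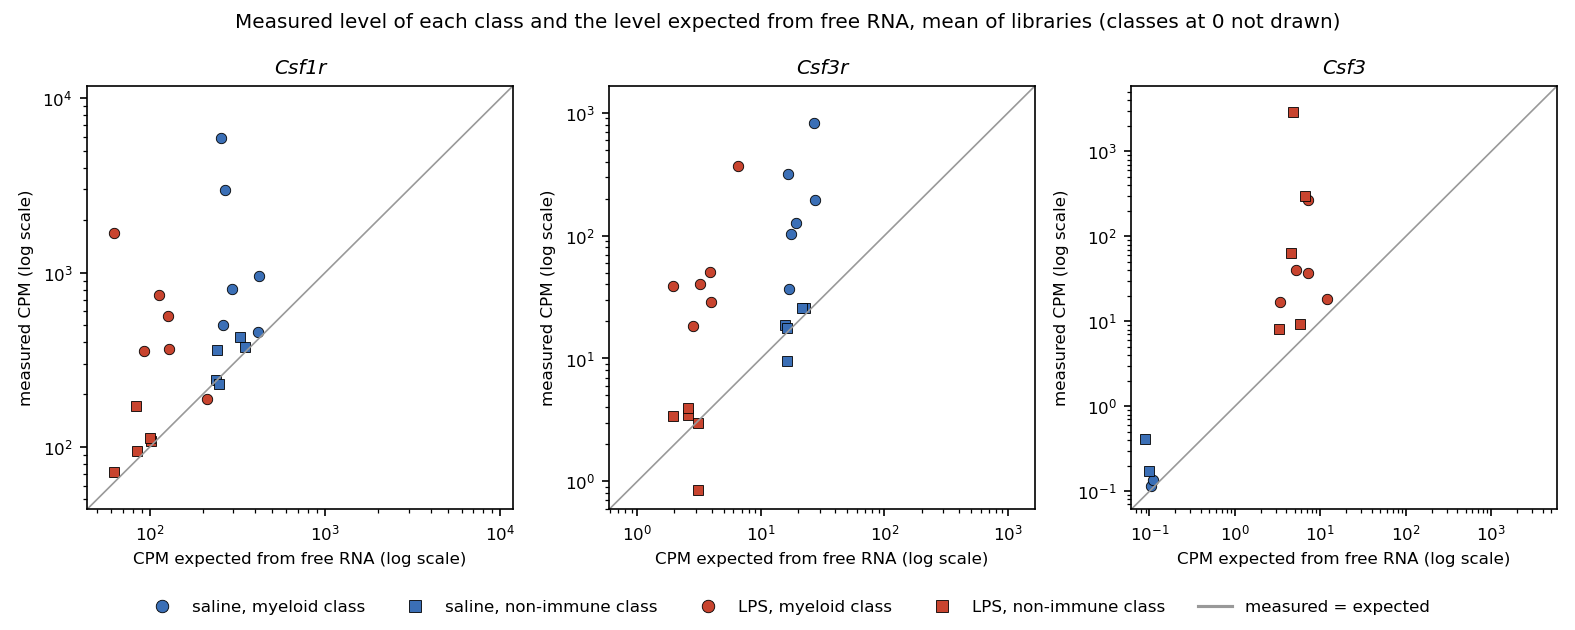
Measured level of Csf1r, Csf3r and Csf3 in each class (y axis, CPM, log scale) against the level expected from free RNA (x axis, CPM, log scale), as means over libraries, with circles for 6 myeloid and squares for 5 non-immune classes. Most non-immune classes lie near the line of equality for Csf1r and Csf3r, microglia lie far above it, and endothelial Csf3 after LPS lies at 2939 CPM where 4.80 CPM is expected.

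The same pattern held in shares of cells. Thinned to 800 UMIs, 97.9% ± 0.299 (SD) of saline microglia and 71.6% ± 2.69 of LPS microglia had a Csf1r UMI, and 87.7% ± 1.63 and 36.0% ± 3.78 of macrophages did. B-cells, which lack the receptor, gave 22.8% and 11.7% after the same thinning, at unthinned medians of 1866 and 2055 UMIs per cell. Without thinning the shares of microglia were 99.7% and 97.4%, those of macrophages 97.0% and 69.0%, and those of B-cells 46.4% and 21.9%. Of 86 pairs of gene and class tested in this way, 26 reached p = 0.0286 in the exact two-sided permutation test (15.3% of all genes over the 9 classes with 4 libraries a side), and none passed adjustment (smallest adjusted p = 0.0945). The 86 pairs and the adjustment also cover nonclassical monocytes and leptomeningeal fibroblasts, which that percentage leaves out. With 3 LPS libraries each, their exact p could not go below 0.0571. When libraries are exchanged only within each replicate number, which pairs the samples, 36 arrangements remain and no exact p of this comparison could be below 0.0556. The shares that reached it included Csf1r in microglia, macrophages and classical monocytes.

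The alpha chain of the CSF2 receptor, Csf2ra, rose in microglia and macrophages and fell in dendritic cells. Microglia held 57.9, 57.1, 71.9 and 56.1 CPM in saline libraries and 85.8, 101, 93.1 and 66.8 CPM in LPS libraries. The groups overlapped, because saline inhibitors replicate 1 lay above LPS inhibitors replicate 2. The log2 fold change was 1.25 (SE 0.12, edgeR adjusted p = 1.12e-06) and 0.51 with library totals (adjusted p = 0.00338). Dendritic cells held 135, 181, 242 and 154 CPM in saline libraries and 81.7, 71.7, 52.4 and 36.9 CPM in LPS libraries, without overlap. There the log2 fold change was -1.41 (SE 0.28, edgeR adjusted p = 0.000724), and the test of the difference from microglia gave -2.23 (adjusted p = 2.81e-15). In macrophages the change of 0.63 (SE 0.14, edgeR adjusted p = 0.00191) did not pass with library totals (0.26, adjusted p = 0.185).

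Of the classes tested, saline nonclassical monocytes held the highest Csf2ra, at 323 to 384 CPM, above each library of the classical monocytes. The neutrophil markers given above for this class apply here as well. The 3 LPS libraries of nonclassical monocytes held 189, 274 and 168 CPM, all below saline, but with 23 UMIs in all the log2 fold change of -0.70 missed the threshold (edgeR adjusted p = 0.153). Classical monocytes held 172, 279, 268 and 263 CPM in saline and 197, 146, 171 and 130 CPM in LPS libraries. Only saline DMSO replicate 1 lay within the LPS range, and the log2 fold change was -0.54 (edgeR adjusted p = 0.0504), which passed with the replicate block (-0.52, adjusted p = 0.0466) and with library totals (-0.65, adjusted p = 0.0197). The changes in both monocyte classes lay below that of microglia, by 1.40 in classical (edgeR adjusted p = 2.74e-08, against 20.6% of all genes) and by 2.08 in nonclassical monocytes (adjusted p = 5.43e-05, against 5.99%). In the latter fit the median of all genes was -1.32, against -0.59 under DESeq2 size factors and -0.37 with library totals, and under these scalings the call was lost. Neutrophils, at 133 to 237 CPM and 168 to 274 CPM, showed overlapping groups (0.23, 95% interval -0.26 to 0.71), as did endothelial cells at 22.2 to 44.6 CPM and 24.2 to 48.7 CPM (0.17, 95% interval -0.37 to 0.71). In leptomeningeal fibroblasts Csf2ra fell with 23 UMIs against 7 (-2.15, SE 0.76, edgeR adjusted p = 0.0469), a call that was lost with the dissociation treatment as a covariate (adjusted p = 0.107). There Csf2ra passed the count filter only through saline libraries, so the test had to show a difference.

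Csf2rb, the beta chain shared by CSF2, IL-3 and IL-5, rose in microglia, macrophages, nonclassical monocytes, neutrophils, dendritic cells and endothelial cells. In dendritic cells it stood at 128, 188, 253 and 127 CPM in saline libraries and at 404, 339, 455 and 332 CPM in LPS libraries. The groups did not overlap, and the log2 fold change was 1.24 (SE 0.24, edgeR adjusted p = 0.000501), while Csf2ra fell in this class. The class itself also differed between the groups, as its 13 dendritic markers summed to 2343 to 3227 CPM in saline and 5636 to 9067 CPM in LPS libraries, with all 13 at 10 CPM or more. The 10 classical monocyte markers, of which 6 reached 10 CPM, summed to 1024 to 1908 CPM in saline and 247 to 711 CPM in LPS dendritic cells. The part of these markers in the changes of Csf2ra and Csf2rb was not tested. In neutrophils 55.4, 133, 103 and 194 CPM in saline stood against 223, 322, 404 and 369 CPM in LPS, again without overlap, with a log2 fold change of 1.53 (SE 0.34, edgeR adjusted p = 0.00535). The 10 classical monocyte markers, of which 8 reached 10 CPM, summed in neutrophils to 1464 to 4675 CPM in saline and 6438 to 8415 CPM in LPS libraries. This list holds Chil3, which is also among the immature neutrophil markers used below and among the leading genes of the neutrophil class. The 9 nonclassical monocyte markers, of which 6 reached 10 CPM, summed to 1165 to 2638 CPM and 2259 to 4956 CPM, and the part of both lists in this rise was not tested. Nonclassical monocytes held 115 to 153 CPM in saline libraries and 491, 366 and 280 CPM in LPS libraries. This rise of 1.51 (SE 0.34, edgeR adjusted p = 0.00901) rested on 39 UMIs in LPS libraries and missed the threshold without a count filter (1.15, adjusted p = 0.128). The 9 markers of this class, all at 10 CPM or more, summed to 5004 to 6910 CPM in saline and 1692 to 3286 CPM in LPS libraries, and the 10 classical monocyte markers, of which 8 reached 10 CPM, to 1893 to 3154 and 2195 to 5288 CPM. Their part in this rise was not tested.

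In microglia Csf2rb stood at 88.5, 94.6, 103 and 90.7 CPM in saline libraries and at 141, 112, 138 and 125 CPM in LPS libraries. No saline library reached an LPS library. The log2 fold change was 1.19 (SE 0.11, edgeR adjusted p = 1.06e-06), and 0.46 with library totals (adjusted p = 0.00127). In macrophages, where the ranges of 91.4 to 123 CPM and 111 to 212 CPM overlapped, it was 0.98 (SE 0.17, edgeR adjusted p = 0.000186). Classical monocytes held the highest mean of the 11 classes tested in saline (233 CPM ± 64.6, SD), and at 243 CPM ± 27.2 in LPS they overlapped it, with a log2 fold change of 0.13 (95% interval -0.27 to 0.53, edgeR adjusted p = 0.680). The called rise in endothelial cells (1.97, SE 0.39, edgeR adjusted p = 0.000536) went from 3.51 to 15.3 CPM in saline to 16.7 to 42.4 CPM in LPS, where free RNA would give 5.40 and 7.76 CPM. The marker sums given above for endothelial cells moved with this rise, and their part in it was not tested.

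Csf2rb2, the second beta chain of the mouse, followed Csf2rb in neutrophils and macrophages. Neutrophils held 25.9, 17.2, 72.2 and 23.6 CPM in saline libraries and 69.1, 56.2, 81.3 and 72.4 CPM in LPS libraries. Saline inhibitors replicate 1 alone overlapped the LPS range, and the log2 fold change was 1.46 (SE 0.32, edgeR adjusted p = 0.00442). In macrophages 32.5 to 40.8 CPM in saline overlapped with 36.7 to 74.5 CPM in LPS, at 1.05 (SE 0.20, edgeR adjusted p = 0.000399). In microglia the saline libraries held 48.2, 56.4, 54.4 and 53.6 CPM and the LPS libraries 61.7, 45.0, 51.1 and 43.4 CPM. These groups overlapped, and the direction rested on the scaling: 0.65 after TMM (SE 0.12, edgeR adjusted p = 0.000538) and -0.079 with library totals as the only scale (adjusted p = 0.547). In classical monocytes 0.53 missed the threshold (edgeR adjusted p = 0.0528) and passed with the replicate block (0.55, adjusted p = 0.0366). Dendritic cells held 23.6 to 107 CPM in saline and 70.4 to 107 CPM in LPS libraries, with overlap, and 0.85 missed the threshold as well (95% interval 0.13 to 1.56, edgeR adjusted p = 0.0793). Nonclassical monocytes, with 9 and 7 UMIs, were not tested. The transcripts of Csf2rb (4900 bases) and Csf2rb2 (4740 bases) shared 892 of their windows of 50 bases, 18.4% and 19.0% of each, and none of 451 windows in the last 500 bases, near the 3′ end. How reads that match both were assigned is not given in the sources used here.

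**Figure D4:**
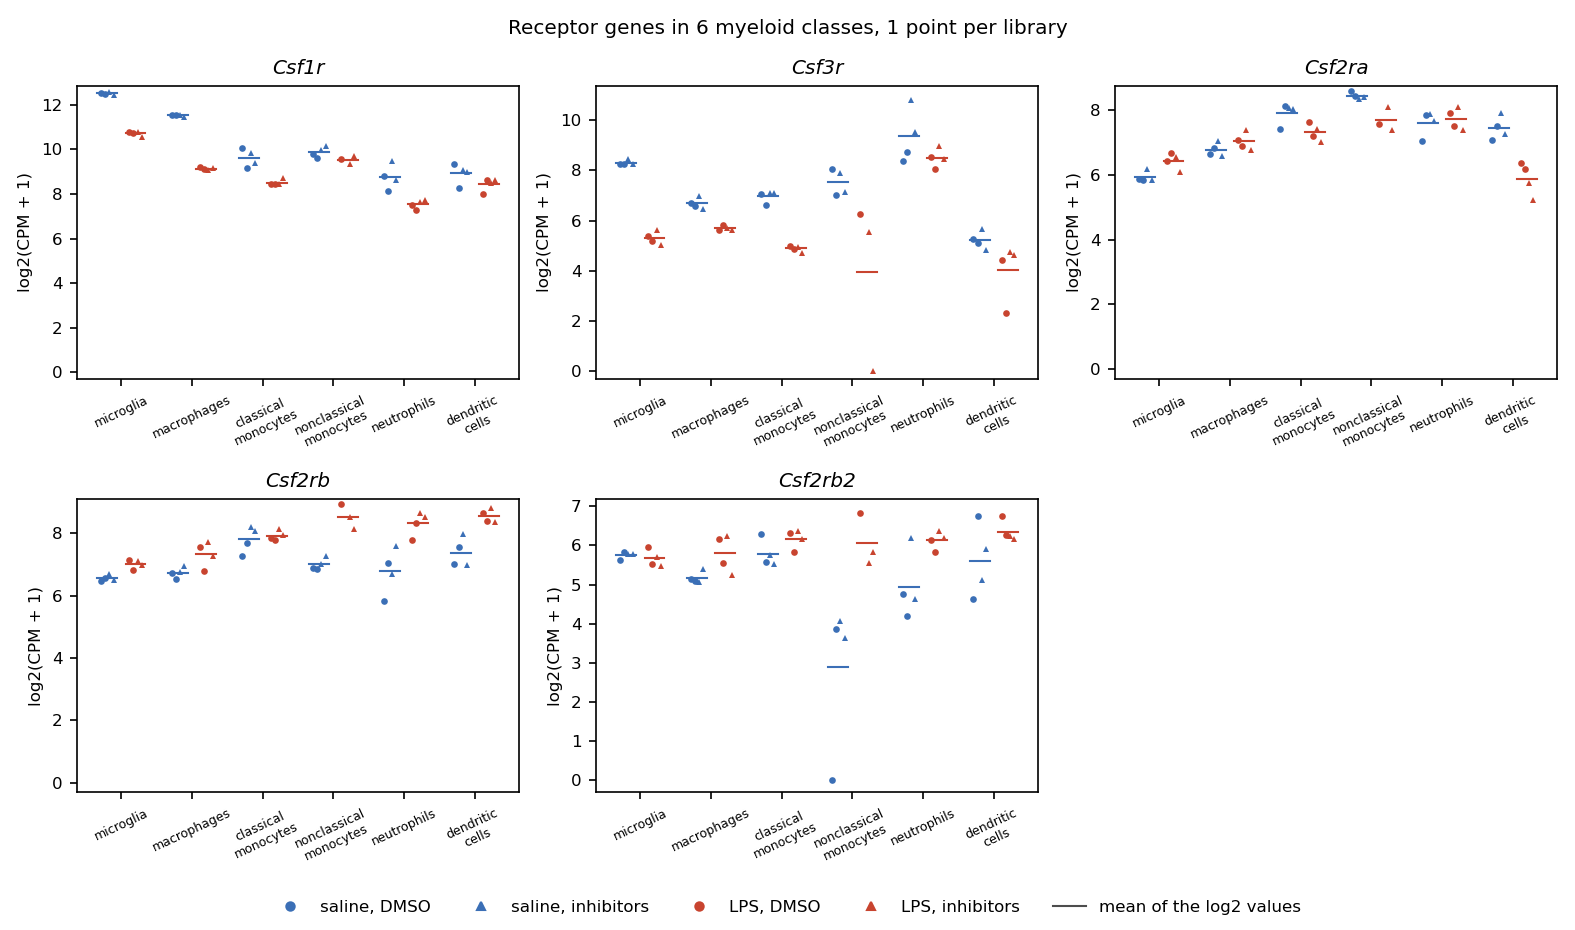
Level of the 5 receptor genes as log2(CPM + 1) (y axis) in 6 myeloid classes (x axis), 1 point per library, with circles for DMSO, triangles for inhibitors and lines at the mean of the log2 values. Csf1r and Csf3r are lower after LPS in microglia, macrophages and classical monocytes without overlap, and Csf2rb is higher without overlap in microglia, nonclassical monocytes, neutrophils and dendritic cells.

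Csf2 itself was nearly absent. Microglia gave 7 Csf2 UMIs in saline and 10 in LPS libraries, and T-cells gave 8 and 7, which is 3.07 and 7.10 CPM as means over libraries. Il3ra, the alpha chain for IL-3, was listed at 29.7 to 68.8 CPM in saline and 38.7 to 56.7 CPM in LPS classical monocytes, with a log2 fold change of -0.05 (edgeR adjusted p = 0.896). In microglia it rose from 2.39 to 3.59 CPM in saline to 3.50 to 5.19 CPM in LPS (1.18, SE 0.18, edgeR adjusted p = 7.56e-05). Il5ra in microglia, at 0.572 to 0.767 CPM against 0.274 to 0.430 CPM, changed by -0.26 (edgeR adjusted p = 0.304). Of the 5 genes of the list of other beta common ligands and chains, these 2 had enough counts to be tested in microglia.

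Csf3 was close to 0 in saline libraries and was found mainly in endothelial cells after LPS. All assigned saline cells together gave 18 Csf3 UMIs, and all assigned LPS cells 14700. In endothelial cells the saline libraries held 0, 0, 0.697 and 0 CPM and the LPS libraries 3263, 3010, 2143 and 3341 CPM. These are 1 and 8103 UMIs, a ratio of 16130 with a 95% counting interval of 2894 to 637165. Intervals of this kind cover counting error only. Endothelial cells, at 0.857% of the assigned LPS cells, held 55.1% of the Csf3 UMIs. Of 461 endothelial cells pooled over LPS libraries, 336 had a Csf3 UMI (72.9%), a share that gives no spread between mice. Cells with at least 5 UMIs held 97.2% of the UMIs. Among B-cells of these libraries 1 of 126 had one (0.794%), at a median of 2055 UMIs per cell against 3487 in endothelial cells. Thinned to 800 UMIs, 58.1% ± 7.27 (SD) of LPS endothelial cells had a Csf3 UMI.

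Macrophages held 1 Csf3 UMI in saline libraries and 1120 in LPS libraries, where the levels were 448, 106, 197 and 327 CPM. The ratio was 1932 (95% counting interval 346 to 76396), and 7.08 CPM would be expected from free RNA. With the cells of all LPS libraries pooled, 353 of 1477 macrophages had a UMI (23.9%), a share that gives no spread between mice. Leptomeningeal fibroblasts held 0 in each saline library and 261, 248 and 380 CPM in the 3 LPS libraries, which is at least 40.5-fold higher with a floor of 3 UMIs over the saline group. Means of these classes overlapped each other, and endothelial cells stood above both without overlap. Microglia, with 4566 UMIs after LPS, reached only 12.9, 6.61, 15.3 and 32.8 CPM, where free RNA would give 3.35 CPM, against 0.0450 to 0.256 CPM in saline libraries. In LPS microglia 2026 of 45494 cells had a UMI (4.45%), and the 225 cells with at least 5 held 44.2% of the UMIs.

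Classical monocytes went from 0 UMIs to 488 (14.7 to 54.7 CPM, at least 17.5-fold higher), where 7.07 CPM was expected from free RNA. Neutrophils, at 10.2 to 31.1 CPM and at least 7.09-fold higher, were close to the 12 CPM expected, and so were ependymal cells at 9.32 CPM where 5.86 CPM was expected. In dendritic cells 39 of 50 LPS UMIs, and in pericytes and smooth muscle cells 38 of 41, came from 1 library each. Since saline libraries held 0 to 15 Csf3 UMIs per tested class, the size of fitted changes of Csf3 after LPS is not read here. The difference of 3.44 between the fitted changes of macrophages and microglia rests on 1 and 15 saline UMIs and supports nothing, and its call was lost without saline DMSO replicate 1 (2.37, edgeR adjusted p = 0.254), with free RNA subtracted (3.12, adjusted p = 0.281) and under a stricter gate (2.71, adjusted p = 0.112).

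Csf3r, the receptor of CSF3, fell in microglia, classical monocytes and macrophages. Microglia held 308, 300, 351 and 304 CPM in saline libraries and 41.4, 35.0, 47.8 and 31.5 CPM in LPS libraries. No LPS library came near a saline library. The change came to -2.29 (SE 0.12, edgeR adjusted p = 6.55e-09), and -3.02 with library totals. Classical monocytes held 131, 97.6, 137 and 138 CPM in saline libraries and 30.8, 28.6, 30.2 and 25.5 CPM in LPS libraries, again apart, at -2.02 (SE 0.19, edgeR adjusted p = 1.42e-06). In macrophages 102, 94.7, 127 and 88.0 CPM in saline stood against 48.6, 56.0, 50.6 and 48.6 CPM in LPS. The groups were apart, and the change of -0.66 (SE 0.14, edgeR adjusted p = 0.00114) was smaller than that of microglia by 1.61 (adjusted p = 3.21e-20), although it missed the threshold under a stricter gate (-0.45, adjusted p = 0.0912). Nonclassical monocytes went from 128 to 266 CPM in saline to 75.5, 45.7 and 0 CPM in LPS libraries, with 4 UMIs in the latter, too few to pass the count filter, while the fit with the replicate block tested and called them (-2.54, SE 0.57, edgeR adjusted p = 0.00657). The 14 neutrophil markers, of which 11 reached 10 CPM, summed in this class to 279 to 16768 CPM in saline and 412 to 7931 CPM in LPS libraries, and their part in this change was not tested. Dendritic cells held 27.7 to 49.5 CPM in saline and 3.99 to 26.2 CPM in LPS libraries, apart by a narrow gap and with too few UMIs (42 and 23) to be tested in that class.

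Thinned to 800 UMIs, 22.0% ± 1.24 (SD) of saline microglia and 3.08% ± 0.619 of LPS microglia had a Csf3r UMI (exact permutation test, p = 0.0286). Without thinning the shares were 52.5% and 17.6%. B-cells gave 1.85% and 0% after thinning and 5.57% and 0.758% without it. The called fall in endothelial cells (-2.12) went from a mean of 18.6 to 3.48 CPM, where 15.7 and 2.58 CPM were expected from free RNA. In endothelial cells Csf3r passed the count filter only through saline libraries, so the test had to show a difference.

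Of the classes tested, neutrophils held the highest mean level of Csf3r in both groups, at 329, 418, 1805 and 746 CPM in saline libraries and 368, 264, 500 and 345 CPM in LPS libraries. The saline libraries were spread widely and overlapped the LPS range, and the change of -0.94 missed the threshold (SE 0.38, edgeR adjusted p = 0.0937). Neutrophils differ in maturity, and the share with at least 3 of 5 markers of immature cells (Ngp, Camp, Ltf, Cd177 and Chil3, which encode proteins made before release from the marrow) ran from 39.6% to 81.0% in saline and from 43.1% to 64.3% in LPS libraries. A split by these markers was chosen after the values were seen. Cells with at most 1 marker were also shallower, at median UMIs of 1202.5 in saline and 1110.5 in LPS libraries against 2086 and 1965 in cells with at least 3, and depth and maturity cannot be told apart in this split. Neutrophils with at most 1 marker held Csf3r at 1484, 2736, 3181 and 4022 CPM in saline and at 449, 552, 826 and 507 CPM in LPS libraries. Each saline library lay above each LPS library, and the mean was 4.90 times higher in saline (exact two-sided permutation test, p = 0.0286, adjusted p = 0.0762 over 16 tests). This test, like the others of its kind, exchanges all 8 libraries, and within replicate numbers it could not go below 0.0556. These were 102 saline and 266 LPS cells. Neutrophils with at least 3 markers held 306 CPM ± 156 (SD) in saline and 282 CPM ± 85.8 in LPS, with overlap (p = 0.857, same exact permutation test). With at most 2 markers the saline mean was 4.40 times the LPS mean.

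Csf2rb was split the other way. In neutrophils with at least 3 immature markers it stood at 61.8, 99.6, 40.5 and 160 CPM in saline and at 215, 317, 389 and 364 CPM in LPS libraries, 3.55 times higher and without overlap (exact permutation test, p = 0.0286, adjusted p = 0.0762). With at most 1 marker the means were 288 CPM ± 233 (SD) and 317 CPM ± 136, with overlap (exact permutation test, p = 0.857). Csf1r in cells with at least 3 markers stood at 428 CPM ± 182 and 147 CPM ± 28.0 without overlap (exact permutation test, adjusted p = 0.0762), where free RNA would give neutrophils 412 CPM in saline and 212 CPM in LPS. Whether these changes differ between the stages was not tested.

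**Figure D5:**
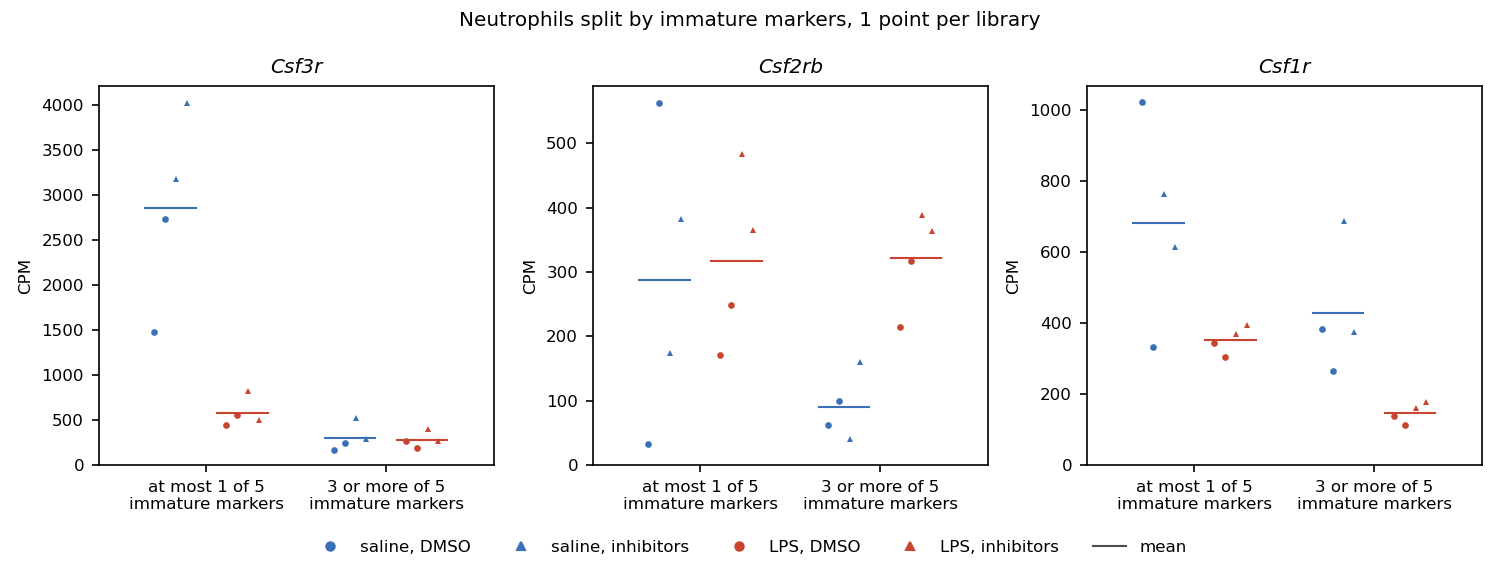
Level of Csf3r, Csf2rb and Csf1r (y axis, CPM) in neutrophils with at most 1 and with at least 3 of 5 immature markers (x axis), 1 point per library, with circles for DMSO, triangles for inhibitors and lines at the mean. Csf3r is 1484 to 4022 CPM in saline and 449 to 826 CPM in LPS libraries in cells with at most 1 marker, and Csf2rb is apart in cells with at least 3 markers.

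Microglia and the other 5 myeloid classes were compared directly in 40 pairs, with the mouse as a block, and 14 passed (17.5% of all tests of this kind). Without Csf3, whose differences rest on near-empty saline groups, 13 of 35 passed. The median of all genes in these fits was -0.26 in macrophages, 0.23 in classical monocytes and -1.32 in nonclassical monocytes. It was 0.05 in neutrophils and -0.05 in dendritic cells, and the differences given here are not corrected for these medians. The change of Csf3r lay above that of microglia in macrophages (1.61), classical monocytes (0.66), neutrophils (2.00) and dendritic cells (1.80). The difference in classical monocytes was lost under DESeq2 size factors (0.52, edgeR adjusted p = 0.0824), under a stricter gate, and without the second replicate of saline DMSO, LPS DMSO or LPS inhibitors (0.42 to 0.55). Counts were filtered over both classes together, so Csf3r entered in dendritic cells although it had too few UMIs to be tested within that class. The difference in dendritic cells was lost under the stricter gate (1.02, edgeR adjusted p = 0.657). Csf2ra lay below the change of microglia in macrophages, both monocyte classes and dendritic cells, by 0.61 to 2.23 on the log2 scale. Of these, the difference in macrophages missed the threshold with library totals (-0.22, edgeR adjusted p = 0.223) and without saline inhibitors replicate 1 (-0.37, adjusted p = 0.0533), and that in nonclassical monocytes with library totals (-1.13, adjusted p = 0.191) and under DESeq2 size factors (-1.35, adjusted p = 0.0553). Neutrophils exceeded microglia for Csf2rb (0.78, SE 0.28, edgeR adjusted p = 0.0337, against 17.2% of all genes) and Csf2rb2 (1.26, SE 0.35, adjusted p = 0.00339). The Csf2rb call was lost under DESeq2 size factors (0.68), without a count filter (0.75), under a stricter gate (0.54), with the highest doublet scores removed (0.67), with free RNA subtracted (0.88) and when any library other than saline inhibitors replicate 2 or LPS DMSO replicate 1 was left out. The Csf2rb2 call was lost without saline DMSO replicate 2 (0.82, edgeR adjusted p = 0.201) and under a stricter gate (0.96). Csf2rb in classical monocytes lay 0.66 below microglia (edgeR adjusted p = 0.0121) and the test missed the threshold with library totals (-0.40, adjusted p = 0.126) and without saline inhibitors replicate 1 (-0.52), saline inhibitors replicate 2 (-0.57) or LPS DMSO replicate 1 (-0.58).

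The dissociation treatment moved none of these genes past the threshold. DMSO against inhibitors gave 0 of 52 tested pairs in edgeR (0.227% of all tests passed), 0 in DESeq2, and 3 at an unadjusted p under 0.05. These were Csf3 in microglia (-1.19, 95% interval -2.01 to -0.38, lower with DMSO), Csf3r in neutrophils (-0.89) and Csf2ra in endothelial cells (-0.63). For Csf1r the log2 difference of DMSO over inhibitors was 0.02 in microglia (95% interval -0.30 to 0.33) and 0.07 in macrophages (95% interval -0.20 to 0.34). The LPS change differed between DMSO and inhibitor libraries in 0 of 56 pairs (0.0131% of all tests passed), with 3 at an unadjusted p under 0.05, 0 in DESeq2 and a smallest adjusted p of 0.795.

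Genes downstream of the receptors were taken from lists. For these counts, 30.0% of all genes tested rose and 35.2% fell after LPS in microglia, 25.1% and 25.7% in macrophages, 14.5% and 14.6% in classical monocytes, 11.0% and 11.4% in neutrophils, 18.1% and 17.8% in dendritic cells and 21.4% and 22.3% in endothelial cells. With library totals the calls split less evenly, with 2912 genes higher and 13613 lower in microglia, 1339 and 3848 in macrophages, and 1456 and 2904 in endothelial cells. Of 16 genes of CSF1R signaling, 4 rose and 6 fell in microglia, with a median of 0.02 on the log2 scale beside -0.18 for all genes, and in macrophages 4 rose and 7 fell (median -0.17, all genes -0.03). In microglia Src, a kinase recruited by the receptor, fell from 40.4 to 47.9 CPM in saline to 4.35 to 5.59 CPM in LPS (-2.33, SE 0.12, edgeR adjusted p = 6.61e-09). Gab2, an adaptor, fell by 1.44, and Inpp5d, which encodes the phosphatase SHIP1, fell by 1.07 on the log2 scale. In dendritic cells 2 of 13 tested rose and 4 fell, with Pik3r1 at 1.77 and Plcg2 at -1.57. In endothelial cells 7 of 16 rose and 3 fell, and in classical monocytes 2 of 15 rose and 3 fell. Of 4 shedding and binding partners of the CSF1R ligands, 0 rose and 2 fell in microglia, and in classical monocytes Sdc1, which encodes the proteoglycan syndecan-1, rose by 3.60.

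Of 13 genes of the JAK-STAT branch, 8 rose and 1 fell in microglia (median 1.28), and 8 of 12 tested rose with 0 lower in dendritic cells (median 1.44, all genes 0.02). Socs3, which encodes the feedback inhibitor of the CSF3 receptor, rose in microglia from 12.8 to 83.1 CPM in saline to 228 to 991 CPM in LPS (4.50, SE 0.66, edgeR adjusted p = 6.71e-05). It rose in macrophages (4.47), leptomeningeal fibroblasts (4.61), endothelial cells (4.14) and neutrophils (2.23) as well. Cish, a STAT5 target that restrains signaling, went in dendritic cells from 0 to 18.2 CPM in saline to 91.8 to 206 CPM in LPS (3.69, SE 0.46, edgeR adjusted p = 7.71e-06), and in neutrophils from 0 to 1.72 CPM to 30.7 to 50.6 CPM (5.16, SE 0.62, adjusted p = 5.79e-05). Cish passed the count filter in both classes only through LPS libraries, so these tests had to show a difference. It is counted among the genes of this list that rose in both. Pim1, another STAT target, rose by 3.61 in microglia, 2.59 in endothelial cells and 2.04 in neutrophils. In neutrophils 5 of 11 tested rose and 0 fell, and in macrophages 5 of 10 rose and 3 fell. In classical monocytes 3 of 11 rose and 4 fell, and in endothelial cells 9 of 13 rose and 1 fell. With DMSO against inhibitors, 1 of 13 genes of this list was higher in microglia (0.387% of all genes) and 1 of 11 in macrophages (0.603%). It was 1 of 12 in dendritic cells (0.398%), and no gene of the list passed in the other classes.

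Transcription factors known to bind the Csf1r or Csf3r gene formed a list of 7. In microglia 3 rose and 3 fell. Cebpa, a myeloid factor, fell from 346 to 583 CPM in saline to 27.2 to 49.2 CPM in LPS (-2.77, SE 0.17, edgeR adjusted p = 3.06e-08), and Fli1, an ETS factor, fell by 1.64. Ets2 rose by 2.60 and Cebpb, which acts in emergency granulopoiesis, by 1.55. In dendritic cells 1 of 6 tested rose and 4 fell, among them Cebpa (-3.47) and Irf8 (-2.59), a factor of dendritic cell development. In neutrophils 3 rose and 3 fell, in macrophages 3 rose and 2 fell, and in classical monocytes 1 rose and 2 fell. In endothelial cells 3 rose and 1 fell, with Cebpb at 4.27. With DMSO against inhibitors, 1 of 7 was higher in macrophages (0.603% of all genes), and no gene of this list passed in the other classes.

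A list of 15 immediate-early genes, which dissociation of tissue can induce, was read beside these results. After LPS 6 of 13 tested rose and 1 fell in endothelial cells, 3 of 7 rose and 0 fell in each of leptomeningeal fibroblasts (26.4% of all genes passed in either direction) and ependymal cells (31.0%), and 1 of 6 rose in choroid plexus cells (27.4%). In microglia 2 of 15 rose and 2 fell, and in neutrophils 2 of 11 rose and 2 fell. In dendritic cells 6 of 11 fell (median -1.86 on the log2 scale), in classical monocytes 4 of 11, in macrophages 2 of 11 and in nonclassical monocytes 1 of 7 (19.1% of all genes passed), with 0 higher in each of these, and in pericytes and smooth muscle cells 0 of 7 passed (26.6%). With DMSO against inhibitors, 13 of 15 were higher in microglia (median 3.37 on the log2 scale, where 0.387% of all genes were higher) and 12 of 12 in macrophages (median 3.50, where 0.603% were). In classical monocytes 5 of 11 were higher (0.0571% of all genes), in neutrophils 3 of 11 (0.0732%), in dendritic cells 10 of 11 (0.398%) and in endothelial cells 1 of 13 (0.0194%). It was 1 of 8 in nonclassical monocytes (0.0546%), 4 of 7 in choroid plexus cells (0.0659%), 4 of 10 in ependymal cells (0.0833%), 2 of 9 in pericytes and smooth muscle cells (0.181%) and 1 of 8 in leptomeningeal fibroblasts (0.0249%).

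As a description of likeness, log2(CPM + 1) was correlated over 33 pairs of cell class and in vivo treatment among 16683 genes at 10 CPM or more in at least 1 pair. These points share libraries, depth and free RNA. The most alike gene was Sqstm1 for Csf1 (r = 0.84), Lamc3 for Il34 (0.90), C1qc for Csf1r (0.93), Spi1 for Csf2ra (0.88), Csf2rb2 for Csf2rb (0.92), Cxcl1 for Csf3 (0.86) and Vsir for Csf3r (0.91). Next came Czib and Pakap for Csf1, Pcdh18 and Gpr153 for Il34, Ptgs1 for Csf1r, Stx7 and Atf6 for Csf2ra, Sod2 and Saa1 for Csf3, and Sirpa and Ptafr for Csf3r. Gm46224 stood second for both Csf2rb and Csf2rb2, followed by Actr2 for the former and Rnf19b for the latter.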

How the data were processed

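PIPseq libraries of CD45+ brain cells from 8 mice were analysed. The authors made the deposited counts, whole UMIs per gene and barcode, with PIPseeker and STAR on mm39 and the GENCODE annotation, and no value was normalized. Each column of the tables belonged to 1 library, and the number of unused columns of values was 0.

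Cells were kept at 800 to 44999 UMIs. A cell was assigned to a class when it held at least 3 of the class's markers (5 for neutrophils and choroid plexus cells) and led the next class by 0.15. Microglia needed 3 markers and a summed marker share of at least 0.4 times the median of the library, and other classes had to lie below that share. The markers came before these thresholds, which were set after seeing the data, and the 8 genes and all gene lists were chosen with earlier results of these data known. Doublet calls by Scrublet marked 0.00756% to 0.497% of cells, too few to have worked, so cells were not removed in the main analysis, and the highest scores were removed as an alternative.

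UMIs were summed per class and library with at least 10 cells, and classes with at least 3 libraries on each side were tested by edgeR 4.0.16 (quasi-likelihood, TMM, Benjamini-Hochberg over all genes of the class), with DESeq2 1.42.0, the tool of the study, as an alternative. DESeq2's p-values that were not given stayed out. The 2 replicates of a group are separate mice. The replicate number is the batch in the labels, and same-numbered libraries deviated together, with correlations of 0.187 to 0.759 over 6 pairs of groups and 8677 genes, so the number pairs the samples. Free RNA was taken from barcodes with fewer than 100 UMIs, and the share of a class it could make up was estimated at 0% to 18.6%. This share was the median, over abundant markers of unrelated classes, of their level in the class relative to free RNA. For non-immune classes these were the myeloid markers. Folds against groups at 0 used a floor of 3 UMIs over the group. Intervals and floors cover counting error only. Promoters and motifs came from RefSeq on GRCm38.p6, whose coordinates were not mixed with those of mm39.

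All 8 genes are named, together with list genes that passed with a log2 change over 1 (at most 6 per list and class), genes of the list of other beta common chains, and the 3 genes most alike to each. Some genes that this rule names are not reported here. Alternatives were DESeq2 size factors, DESeq2, no count filter, library totals, a stricter gate (4 markers, margin 0.3), doublet scores, free RNA subtraction, a minimum of 1500 UMIs, removal of cells over percentile 99 of the immediate-early score, the dissociation treatment as a covariate, 1 treatment alone, the replicate block and leaving out each library. The use of library totals and the split of neutrophils were added after seeing the data. Tests were run on simulated data first.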

Additional observations from a re-analysis of the deposited data

Results flagged for a closer look

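Of 125 groups of 4 libraries in which a gene had counts, 13 held a library whose gap to the nearest of the others was large against the range of the group, where chance gives about 1 in 20. Saline inhibitors replicate 1 was the library set apart in 3 of them. It held Csf2ra at 71.9 CPM in microglia (56.1 to 57.9 CPM in the others), Csf3r at 351 CPM in microglia (300.2 to 308 CPM) and Csf2rb2 at 72.2 CPM in neutrophils (17.2 to 25.9 CPM), the last from 7 UMIs. Saline DMSO replicate 1 was set apart by Il34 in ependymal cells, with 26.8 CPM from 7 UMIs, by Csf2ra in classical monocytes, with 172 CPM from 29 UMIs against 263 to 279 CPM, and by Csf2rb in pericytes and smooth muscle cells, with 69.9 CPM from 8 UMIs.

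The Csf1 level of dendritic cells was 94.9 CPM in saline inhibitors replicate 2, from 24 UMIs, and 0 to 6.73 CPM in the other saline libraries. Csf3 stood at 131 CPM in dendritic cells of LPS inhibitors replicate 2 (4.0 to 20.4 CPM in the others) and at 209.5 CPM in pericytes and smooth muscle cells of LPS DMSO replicate 1 (0 to 31.5 CPM). Csf2rb2 stood at 107 CPM in dendritic cells of LPS DMSO replicate 1, Csf2ra at 48.7 CPM in endothelial cells of LPS inhibitors replicate 1 and Csf1r at 419 CPM in classical monocytes of LPS inhibitors replicate 2. Csf2ra was low in fibroblasts of saline DMSO replicate 2, at 20.9 CPM from 2 UMIs.

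The LPS change differed from that of microglia, on the log2 scale and in edgeR with the mouse as a block, for 13 pairs of gene and class other than Csf3. In macrophages the differences were 1.61 for Csf3r, -0.98 for Csf1r and -0.61 for Csf2ra. The value of 3.44 for Csf3 in macrophages rests on 1 and 15 saline UMIs and supports nothing. In classical monocytes they were 0.66 for Csf3r, -0.66 for Csf2rb and -1.40 for Csf2ra, and in nonclassical monocytes -2.08 for Csf2ra. Neutrophils differed by 2.00 for Csf3r, 1.26 for Csf2rb2 and 0.78 for Csf2rb. Dendritic cells differed by 1.80 for Csf3r, 1.06 for Csf1r and -2.23 for Csf2ra. Of 14 alternatives, Csf2rb in neutrophils lost its call in 11, Csf3r in classical monocytes in 5 and Csf2rb in classical monocytes in 4. Csf1r in dendritic cells turned under the stricter gate (-0.25), and Csf3r in dendritic cells had too few UMIs to be tested within that class. The remaining calls were lost in fewer alternatives or in none.

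Classes with too few cells for a comparison also held these genes. Basophils and mast cells of 3 saline libraries held Csf1 at a mean of 430.5 CPM (352 to 564 CPM, 77 UMIs), Csf2rb at 753 CPM (553 to 961 CPM, 138 UMIs) and Csf2rb2 at 333 CPM (298 to 376 CPM, 59 UMIs). Oligodendrocytes of LPS libraries held Csf1 at 62.0 CPM (52.4 to 71.5 CPM, 16 UMIs).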

How the results depend on the processing

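After LPS, 35 pairs of gene and class passed, and the count stayed within 1.5 times of that (24 to 45) under each alternative run, with 32 to 36 when 1 library was left out. With the replicate number as a block, which is the batch number of the labels, 38 passed and all 35 were kept, and Csf2ra and Csf2rb2 in classical monocytes and Csf3r in nonclassical monocytes (-2.54) were added. The dissociation treatment gave 0 pairs in the main test and 1 without a count filter, and 0 when any 1 library was left out. The LPS change differed between dissociation treatments in 0 pairs under each alternative. The differences from microglia fell from 14 to 9 under the stricter gate, where of 13 pairs tested 7 kept their call, 5 lost it and 1 turned, and ran from 12 to 15 with 1 library left out.

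Direction turned in 3 cases, for which the cause was not tested: Csf2rb2 in microglia with library totals (-0.079, edgeR adjusted p = 0.547), Csf1r in endothelial cells with free RNA subtracted (0.35) and the Csf1r difference of dendritic cells from microglia under the stricter gate (-0.25). With DMSO libraries alone, 24 of the 33 pairs tested kept their call, among those lost Csf3r in macrophages (-0.53, edgeR adjusted p = 0.116), Csf1r in classical monocytes (-0.95) and Csf2rb in neutrophils (1.71). Csf1r in classical monocytes also missed the threshold without the cells highest in immediate-early genes (-0.82, edgeR adjusted p = 0.0521). With inhibitor libraries alone, 29 of the 31 pairs tested kept their call. Those lost were Csf2rb in nonclassical monocytes (1.24, edgeR adjusted p = 0.0535) and Csf2rb2 in neutrophils (0.99, adjusted p = 0.181). Without a count filter 33 of 35 kept it, and Csf2rb in nonclassical monocytes and Csf1r in neutrophils (-0.70, edgeR adjusted p = 0.152) lost it. Nonclassical monocytes, leptomeningeal fibroblasts and pericytes gave few cells, so that 3, 5 and 2 of the 8 genes could be tested there. With 1 library left out, the exact test of shares cannot go below p = 0.0571.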
